A study of Mus musculus with 4 samples.

Results

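The genes described here are S100a4, S100a6, S100a10, S100a11, Anxa1, Anxa2, Lgals1, Lgals3, Ahnak and Cd44, all known for higher levels in antigen-experienced T cells than in naive ones. Members were the probe sets of a mouse whole-genome Affymetrix array that its annotation maps to 1 of these symbols alone, 21 of the 45037 non-control probe sets. They covered 9 of the 10 genes, out of 18193 genes named on the array; no probe set was annotated to S100a11 alone, so S100a11 was not analysed here. The set was chosen by known function with the knockout against wild-type differences of these arrays, overall and within array numbers, in view, so values in that contrast are a description and carry no test.

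Naive helper T cells had been sorted as CD4+, CD62L+ and CD44- from mice of 10 to 11 weeks. All mice carried a floxed furin gene (Fur flox/flox). Those labelled knockout also carried CD4 cre, a recombinase under the CD4 promoter, which is active in developing T cells of both main lineages, and the littermates labelled wild type did not. Furin is a protease that cuts precursor proteins into mature forms. Each group had 2 arrays, numbered 1 and 2, and the labels do not say whether these came from separate animals, so errors measure only the spread between samples. The 4 arrays limit the precision of every value. Values are MAS5 signals, on a linear scale where not stated otherwise. Differences are knockout minus wild type on the log2(signal + 15.3) scale, which understates changes of dim probe sets.

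S100 proteins are small calcium-binding proteins that bind partner proteins, annexins bind membrane phospholipids in the presence of calcium, and galectins bind beta-galactoside sugars. Several of them meet in a complex, since S100a10 pairs with Anxa2 and this pair binds Ahnak, a very large scaffold protein beneath the plasma membrane. CD44 is the surface receptor for hyaluronan, and its protein level is the usual gate between naive and memory T cells. Many of these genes are also strongly expressed by myeloid cells.

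The arrays differed by number more than by label. Bacterial hybridisation controls (9 probe sets), which do not come from the cells, gave a mean signal on the array numbered 2 of 6.25 times that on number 1 in wild type and 6.09 times in knockout. The Gapdh 3' to 5' ratio was 4.09 and 3.35 on the arrays numbered 1, and 0.905 and 0.934 on those numbered 2. For each gene, the differences within number 1 and within number 2 are therefore given, in this order. The SE beside a knockout minus wild-type difference is from the fit without array number as a term, and so includes the spread between the numbers. Of the T cell markers, Cd4 was at 3432.4 and 2974.4 on the wild-type arrays and 3032.1 and 3348.3 on the knockout arrays, and Cd3e was at 3160.7 or more on each array. The only Furin probe set was at 435.1 and 343.9 in wild type and 391.4 and 446.9 in knockout; since the deleted part of the gene is not stated, it does not check the labels.

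The start regions of members that were higher in both array numbers were set beside that of Anxa2, which was not, to show what letters they hold. Promoters were found for 8 of the 10 members in a RefSeq table of build GRCm38.p6; S100a10 and Lgals1 had none there. Of the 250 bases before each start, those shown are from S100a4 (chr3:90603520-90603769, + strand), S100a6 (chr3:90612644-90612893, + strand), Anxa1 (chr19:20390672-20390921, - strand), Lgals3 (chr14:47373610-47373859, + strand) and Anxa2 (chr9:69453433-69453682, + strand). Capitals mark matches on either strand to 4 motifs, AP-1 (TGANTCA), a Klf-type motif (CACCC), a T-box motif (TCACACC) and a Stat motif (TTCNNNGAA).
S100a4: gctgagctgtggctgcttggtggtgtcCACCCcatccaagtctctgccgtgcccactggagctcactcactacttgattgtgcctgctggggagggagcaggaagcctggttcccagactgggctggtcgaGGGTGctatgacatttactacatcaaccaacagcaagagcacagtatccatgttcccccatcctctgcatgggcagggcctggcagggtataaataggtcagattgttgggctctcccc
S100a6: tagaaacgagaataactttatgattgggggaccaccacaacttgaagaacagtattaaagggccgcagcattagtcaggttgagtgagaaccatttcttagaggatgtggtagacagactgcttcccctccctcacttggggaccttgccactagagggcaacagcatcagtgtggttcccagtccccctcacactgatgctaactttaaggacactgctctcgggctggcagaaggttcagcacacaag
Anxa1: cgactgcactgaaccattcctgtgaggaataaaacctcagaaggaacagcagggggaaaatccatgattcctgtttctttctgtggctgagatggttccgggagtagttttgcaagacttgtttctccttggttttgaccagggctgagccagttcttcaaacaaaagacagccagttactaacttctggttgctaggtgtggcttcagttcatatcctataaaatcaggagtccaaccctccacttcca
Lgals3: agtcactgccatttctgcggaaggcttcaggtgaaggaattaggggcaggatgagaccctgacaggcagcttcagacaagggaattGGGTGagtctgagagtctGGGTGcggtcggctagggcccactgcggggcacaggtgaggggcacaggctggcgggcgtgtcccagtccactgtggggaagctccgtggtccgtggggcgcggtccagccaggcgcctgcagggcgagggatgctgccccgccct
Anxa2: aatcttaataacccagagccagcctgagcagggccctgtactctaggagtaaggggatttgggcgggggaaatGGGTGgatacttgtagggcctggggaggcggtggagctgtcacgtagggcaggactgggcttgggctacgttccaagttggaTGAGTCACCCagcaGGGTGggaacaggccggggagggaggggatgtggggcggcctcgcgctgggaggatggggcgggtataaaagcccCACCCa

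The AP-1 motif was in 0 of these 4 regions of higher members. Ahnak and Cd44, whose brightest probe sets were lower within both numbers, also had 0 matches to this motif. The motif was present 1 time before Anxa2, 95 to 89 bases ahead of the start and overlapping a Klf-type match, and 2 times before S100a11. Among all 32851 regions of the same length, 6.75% held it. The Klf-type motif occurred 2 times each before S100a4, Lgals3 and Ahnak and 4 times before Anxa2, against a share of 52% of all regions with a match. T-box and Stat matches, in 3.33% and 7.02% of all regions, were in 0 of the 8. Cd44, S100a6 and Anxa1 had 0 matches to all 4. A match is a description of letters, not of a bound site.

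Of the 21 member probe sets, 13 passed a filter that kept the brighter part of the table, 22518 probe sets whose mean log2 value exceeded 6.24. They represent 8 genes; the sole Lgals3 probe set lay below. S100a4 passed only through its knockout arrays, since its wild-type mean was below the filter, whereas the other 7 genes exceeded it in wild type too. The kept members did not shift together. Their genes, each by its brightest probe set, had a median difference of 0.022 (0.28 and -0.14 within the numbers), beside -0.022 (-0.0038 and -0.034) for all kept probe sets. Of the 13 kept probe sets, 3 were higher in the knockout-labelled arrays within both numbers, where 25.3% of all kept probe sets were, and 6 were lower within both, where 30.1% were. The groups did not overlap for 2 higher and 3 lower member probe sets, against 7.62% and 9.54% of all kept. None of the 13 was 2-fold apart in every comparison (0.164% of all kept were, knockout higher).

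**Figure D1:**
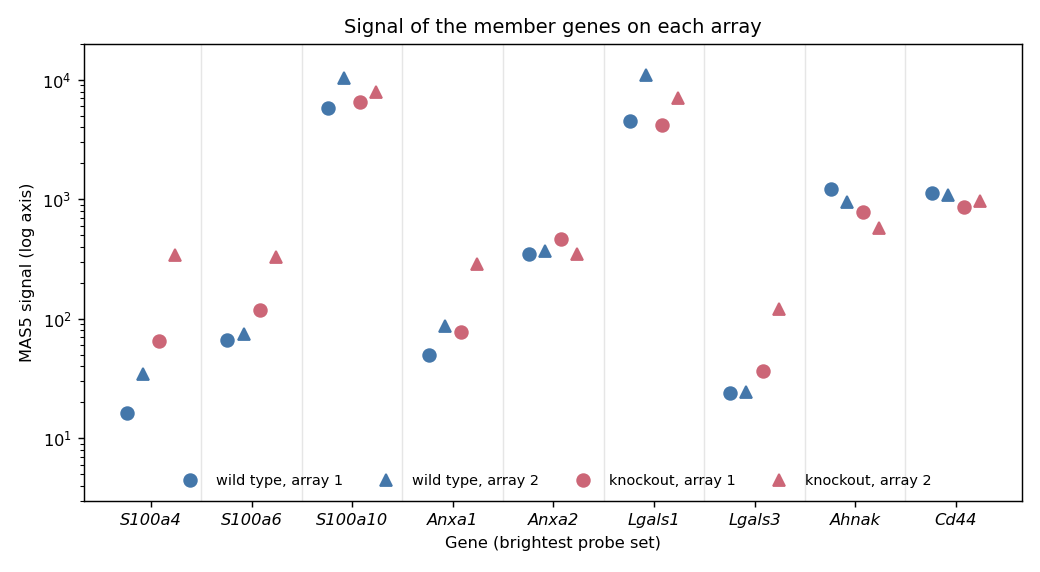
MAS5 signal (log axis) of the brightest probe set of each of the 9 member genes on the 4 arrays; blue is wild type, red is knockout, circles are arrays numbered 1 and triangles arrays numbered 2. S100a4, S100a6, Anxa1 and Lgals3 were brightest on knockout array 2, and heights of different genes are not comparable because probe sets differ in brightness.

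In limma, 0 of 22518 kept probe sets passed an adjusted p of 0.05 without a block (0% called, smallest adjusted p 0.888, 145 with an unadjusted p under 0.05), so 0 members did. With array number as a block 6 probe sets passed (0.0266%), 0 of them members. With the block and a trended prior 260 passed (1.15%), among them 1 member, S100a4. Nothing is read from these counts, because the same contrast served to pick the genes.

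S100a4, a calcium-binding protein tied to cell motility and plentiful in memory T cells and in myeloid cells, showed the widest gap of the members. Its signal was 16.4 and 34.6 on wild-type arrays 1 and 2, and 65.8 and 343.1 on knockout arrays 1 and 2 (means 25.5 ± 12.9 and 204.4 ± 196.1, SD, n = 2). Both knockout arrays lay above both wild-type arrays, and knockout array 2 stood far above the rest. The difference was 2.10 (SE 0.79), with 1.36 and 2.84 within the numbers. Since the wild-type signals were close to the added 15.3, its size depended on that constant, from 1.35 with 66.6 added to 2.61 with 1 added.

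S100a6, a relative that is raised in dividing and activated cells, gave 66.2 and 74.1 in wild type and 118.2 and 328.3 in knockout (means 70.2 ± 5.59 and 223.2 ± 148.6, SD, n = 2). The wild-type arrays were nearly alike while the knockout arrays were both higher and unlike each other. Its difference was 1.33 (SE 0.54), with 0.71 and 1.94 within the numbers.

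S100a10, the annexin partner, did not follow its relatives. The brightest of its 3 probe sets, 1456642_x_at, whose suffix marks probes that may match other transcripts, was at 5861.3 and 10311.7 in wild type and 6492.7 and 7873.7 in knockout. The groups overlapped, and the difference of -0.12 (SE 0.42) had opposite signs within the numbers, 0.15 and -0.39. Probe set 1416762_at gave 2951.9 and 8148.7 in wild type and 3043.3 and 7475.3 in knockout, a difference of -0.04 (SE 0.70). There the values followed the array number and not the label. Probe set 1439348_at, at 446.7 and 295 in wild type and 279.2 and 200.5 in knockout, was lower by both numbers, -0.65 and -0.52, and its groups did not overlap; they overlapped after quantile normalization or median centring. The 3 probe sets therefore disagreed on whether S100a10 was lower.

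Anxa1, an annexin that restrains leukocyte migration and modulates T cell receptor signalling, was at 50.1 and 87.1 in wild type and 76.9 and 286.8 in knockout. Knockout array 1 lay between the wild-type arrays, so the groups overlapped, although within each number the knockout array was the higher one. The difference was 1.03 (SE 0.67), with 0.50 and 1.56 within the numbers. After quantile normalization or median centring the groups no longer overlapped, with knockout higher. A dimmer Anxa1 probe set, 1444016_at, had 0.8 and 7.9 in wild type and 2.5 and 27.4 in knockout, below the filter.

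Anxa2, which pairs with S100a10, was at 346.5 and 372 in wild type and 467.8 and 349.1 in knockout. Knockout array 1 was the highest and knockout array 2 lay inside the wild-type range. The difference was 0.16 (SE 0.34), with 0.42 and -0.09 within the numbers. Its other 2 probe sets were below the filter, with no array above 80.

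**Figure D2:**
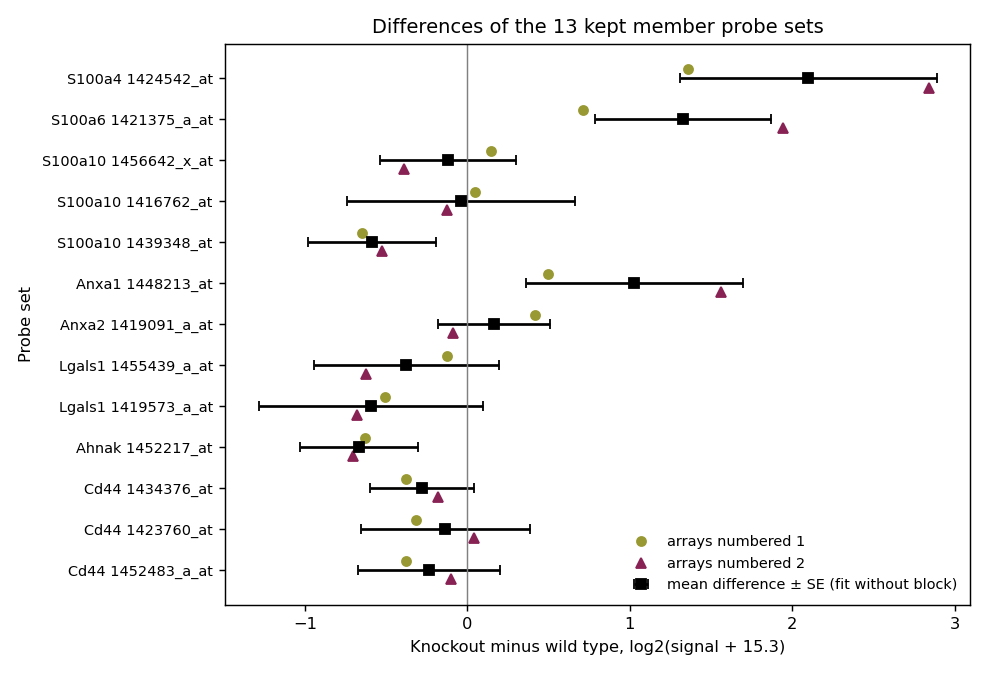
Knockout minus wild-type difference on the log2(signal + 15.3) scale for the 13 kept member probe sets; squares with bars are the mean difference ± SE from the fit without a block, circles the difference within arrays numbered 1 and triangles that within arrays numbered 2. S100a4, S100a6 and Anxa1 lie right of 0 in both numbers, and the probe sets of Lgals1 and Ahnak, 1 of S100a10 and 2 of Cd44 lie left of 0 in both.

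Lgals1, a secreted galectin that is known to dampen effector T cells, was bright on all arrays. Its brightest probe set, 1455439_a_at, was at 4567.1 and 10919.2 in wild type and 4184.6 and 7065.9 in knockout, and the other, 1419573_a_at, at 2001.6 and 5395 in wild type and 1403.3 and 3362.1 in knockout. Within each number the knockout array was lower in both probe sets, but the arrays numbered 2 exceeded those numbered 1 by more than that, so the groups overlapped. The differences were -0.38 (SE 0.57; -0.13 and -0.63 within the numbers) and -0.59 (SE 0.69; -0.51 and -0.68).

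Lgals3, a galectin abundant in macrophages and induced on T cell activation, went the other way. Its only probe set was at 23.9 and 24.6 in wild type and 36.7 and 120 in knockout, a difference of 1.08 with 0.41 and 1.76 within the numbers. The wild-type arrays were alike and both knockout arrays higher. As it did not reach the filter, it has no fitted error and enters none of the counts of kept members.

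Among the brightest probe sets of the members, that of Ahnak had the most even gap. Probe set 1452217_at was at 1214.4 and 948.5 in wild type and 780.2 and 575.1 in knockout (means 1081 ± 188 and 677.6 ± 145, SD, n = 2). Both knockout arrays lay below both wild-type arrays, and the difference of -0.67 (SE 0.36) was similar within the numbers, -0.63 and -0.71. After median centring the groups overlapped, with -0.71 and -0.63 within the numbers. The other 3 Ahnak probe sets were below the filter, with signals from 3.4 to 52.6.

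Cd44, whose protein the sort had excluded, was measured by 3 kept probe sets. The brightest, 1434376_at, was at 1126 and 1098.7 in wild type and 863.2 and 965.2 in knockout. Both knockout arrays were lower, with a difference of -0.28 (SE 0.32; -0.38 and -0.18 within the numbers). Probe set 1423760_at gave 1460.1 and 688.4 in wild type and 1170.9 and 709.1 in knockout, and 1452483_a_at gave 90.8 and 135.7 in wild type and 66.4 and 125.6 in knockout. In both of these the groups overlapped, with differences of -0.14 (SE 0.52; -0.31 and 0.04) and -0.24 (SE 0.44; -0.38 and -0.10). Of the 3 kept Cd44 probe sets, 0 were higher in the knockout-labelled arrays within both numbers.

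**Figure D3:**
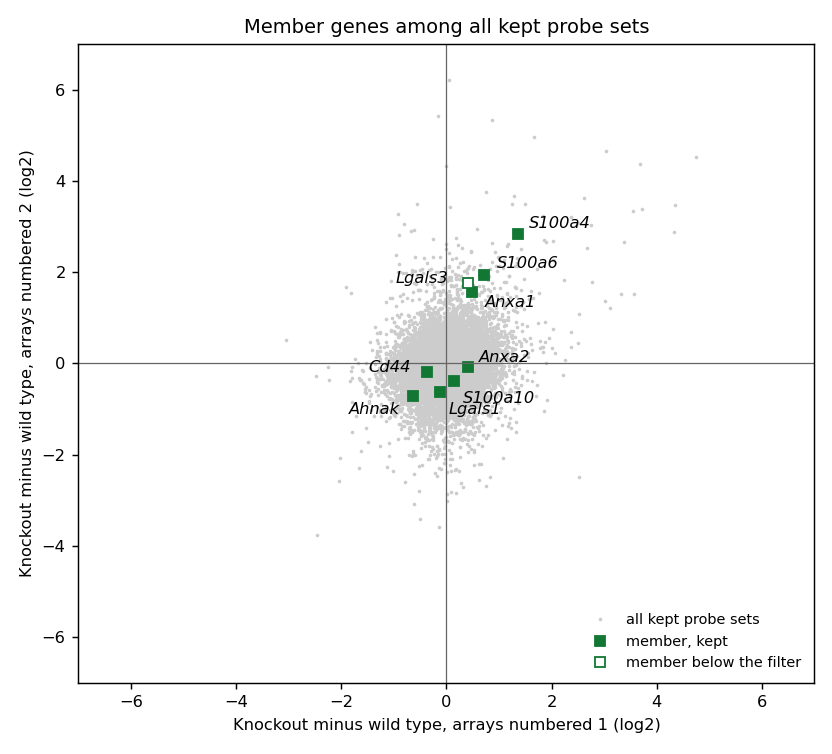
Difference within arrays numbered 1 (horizontal, log2) against that within arrays numbered 2 (vertical, log2) for the 22518 kept probe sets (grey) and the brightest probe set of the 9 member genes (green squares, open where below the filter). S100a4, S100a6, Anxa1 and Lgals3 lie above 0 on both axes and further up than right, Ahnak, Lgals1 and Cd44 lie below 0 on both, and Anxa2 and S100a10 lie between.

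The difference between arrays numbered 1 and 2 played no part in picking the genes and could be tested. In the limma fit with array number and group as terms, 5 of the 12 member probe sets kept other than S100a4 passed an adjusted p of 0.05, where 34.6% of all kept probe sets did. With no filter on low values, 0 probe sets and so 0 members passed (smallest adjusted p 0.104). S100a4 is left out of this count because it reached the filter only through its knockout arrays. Brighter on the arrays numbered 2 were Anxa1 by 1.18 (SE 0.29, adjusted p = 0.0314), S100a10 in 1416762_at by 1.38 (SE 0.19, adjusted p = 0.00754), and Lgals1 by 1.004 (SE 0.22, adjusted p = 0.0209) and 1.34 (SE 0.19, adjusted p = 0.00799). Cd44 in 1423760_at was dimmer there, at -0.89 (SE 0.20, adjusted p = 0.0244). Brighter probe sets made up 19.5% of all kept and dimmer ones 15.1%. For Lgals1 the step from number 1 to number 2 was 1.25 in wild type and 0.75 in knockout in the brightest probe set, and 1.42 and 1.25 in the other. For S100a4 it was 0.65 in wild type and 2.14 in knockout, for S100a6 0.13 and 1.36, for Anxa1 0.65 and 1.71 and for Lgals3 0.026 and 1.38. In the brightest probe sets of the other genes it was 0.81 and 0.28 for S100a10, 0.098 and -0.41 for Anxa2, -0.35 and -0.43 for Ahnak and -0.035 and 0.16 for Cd44. The knockout step was thus the higher in S100a4, S100a6, Anxa1, Lgals3 and Cd44 and the lower in S100a10, Anxa2, Lgals1 and Ahnak. Comparing steps equals comparing the gaps within the numbers, which were in view when the genes were picked. The SE of the difference between array numbers draws in part on that same comparison, and so do the adjusted p values of members. With 1 array per group and number, whether the steps differed was not tested.

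Markers of other cells were read beside these values. The 22 measured myeloid markers had a summed signal of 2052 and 5300 on wild-type arrays 1 and 2 and 3158 and 17792 on knockout arrays 1 and 2. This is 1.54 times wild type within number 1 and 3.36 times within number 2. On knockout array 2, S100a8 and S100a9 gave 3468.2 and 3797.1 of the sum. On wild-type array 1, Cst3 gave 908.3 of it. The summed ratios thus lean on a few bright genes, and single genes lay on either side of them. Cst3 differed by 0.40 and 0.34 within the numbers and Ngp by 1.84 and 3.23, beside 1.36 and 2.84 for S100a4. Signal ratios of the higher members within the numbers were 4.01 and 9.92 for S100a4, 1.79 and 4.43 for S100a6, 1.53 and 3.29 for Anxa1 and 1.54 and 4.88 for Lgals3. In the myeloid list 17 genes were kept, of which 16 were higher and 0 lower within both numbers, beside 25.3% and 30.1% of all kept probe sets. Of those kept, Ngp, Camp, Ltf, Mpeg1 and S100a9 reached the filter only through their knockout arrays. The filter thus favoured a higher direction for these genes. Of the 22, 0 lay under 15.3 on every array. Lyz2, a lysozyme of myeloid cells, was at 54.6 and 174.2 in wild type and 123.3 and 935.4 in knockout, and the neutrophil granule gene Ngp at 28.1 and 102.1, then 139.7 and 1087.1. Itgam, the integrin that defines many myeloid cells, stayed between 10.8 and 49 on the 4 arrays. The part of these cells in the member differences was not tested. In bulk samples, a different number of cells of a type and a different amount of RNA per cell cannot be told apart.

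**Figure D4:**
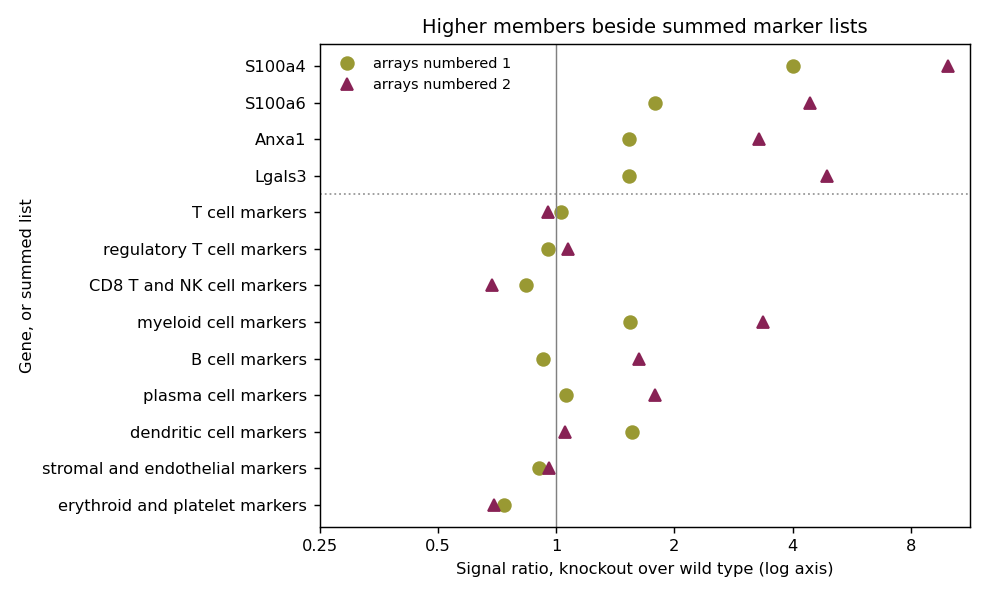
Ratio of MAS5 signal, knockout over wild type, within arrays numbered 1 (circles) and numbered 2 (triangles), on a log axis, for 4 members (above the dotted line) and for the summed signal of 9 marker lists (below it). The myeloid list is at 1.54 and 3.36, Anxa1 at 1.53 and 3.29 and the T cell list at 1.03 and 0.952. Summed ratios lean on the brightest genes of a list, such as Cst3, S100a8 and S100a9 for myeloid and Ighm for B cell markers, and do not give the ratio of a single gene.

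B cell markers had a summed ratio of 0.925 and 1.63. Ighm, the brightest gene of the list, was at 11655.7 and 14964.6 in wild type and 10033.3 and 15221.3 in knockout. The whole list summed to 13454 and 21371 in wild type and 12442 and 34774 in knockout, so its ratios lean on Ighm. The list had a median difference of 0.82 (0.23 and 1.43 within the numbers). Of its 11 kept genes, 9 were higher and 0 lower within both numbers, beside 25.3% and 30.1% of all kept probe sets. The median turned to -0.58 without knockout replicate 2 and to -0.16 without wild-type replicate 1, and was 2.20 without knockout replicate 1 and 1.66 without wild-type replicate 2. For plasma cell markers the ratios were 1.06 and 1.79, with a median of 0.87 over 5 kept genes, 3 higher and 0 lower within both numbers. Jchain, a bright gene of that list, was at 1948.1 and 213.7 in wild type and 1317.4 and 2570.1 in knockout. Ratios were 1.56 and 1.06 for dendritic cell markers and 0.737 and 0.696 for erythroid and platelet markers, with only 2 kept genes in each list. Bst2, the brightest dendritic gene, was at 181.8 and 1579.7 in wild type and 431.2 and 1606 in knockout. CD8 T and NK cell markers had a summed ratio of 0.836 and 0.685 but a median difference of 0.071 (-0.13 to 0.14 under other settings), with 4 of 8 kept genes higher and 2 lower within both numbers. Ctsw, a bright gene of that list, was at 2412.8 and 4114.3 in wild type and 851.1 and 1240.2 in knockout, while Gzma and Nkg7 were higher by 1.78 (SE 0.46) and 1.22 (SE 0.35). Stromal and endothelial markers, whose cells also express S100a6, Anxa1 and Lgals1, were at 0.903 and 0.959. This sum leaned on Pecam1, at 484.5 and 1859.2 in wild type and 351.2 and 1947.1 in knockout. Only 3 of the 10 genes were kept, with a median of -0.46 (-0.18 and -0.79 within the numbers), 0 higher and 2 lower within both. Markers of regulatory T cells, helper T cells of which many carry CD44, were at 0.956 and 1.07; their kept genes had a median of -0.14, 1 of 10 was higher and 6 lower within both numbers, and Foxp3 was at 397.5 and 489.2 in wild type and 300.9 and 458.4 in knockout. The part of these cells in the member differences was not tested either.

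The profile of S100a4 over the 4 arrays was compared with that of 10210 other genes by Euclidean distance of mean-centred log2 values. The 5 closest outside the members were Plac8 (distance 0.62), Lyz2 (0.84), Ngp (0.85), Lyz1 (0.88) and the histone gene H3c7 (0.92). Of these, Plac8 is in the list of other memory helper T cell genes given below, and Lyz1, Lyz2 and Ngp are myeloid genes. Lyz1 and Lyz2 are near-identical copies whose signals may mix. S100a6 ranked 7 (1.02) and Anxa1 ranked 13 (1.11) in likeness, while Anxa2, S100a10, Lgals1, Cd44 and Ahnak held rank 4519 or a later one. The 4 arrays make this a description of shape only. It uses the values whose gaps were in view when the genes were picked, so likeness between members is not separate support.

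Within the S100 family, gene order was taken from the RefSeq annotation. S100a4 and S100a6 are separated by S100a5 alone, and 12 S100a genes from S100a1 to S100a9 follow each other with 0 other protein-coding genes between them. S100a5 was below the filter, at 26.2 and 36.1 in wild type and 42.6 and 16.1 in knockout, with opposite signs within the numbers. S100a3, which lies on the other side beyond S100a2, was lower within both, at -0.40 and -0.58, also below the filter. Neither shared the higher values of S100a4 and S100a6 within both numbers. S100a8 and S100a9, calcium-binding proteins that make up calprotectin in neutrophils, were higher by 2.50 (SE 1.78; 1.502 and 3.502 within the numbers) and 2.48 (SE 2.51; 1.29 and 3.66), and both are also in the myeloid list. S100a16 was higher by 0.57 (SE 0.33; 0.35 and 0.80). Of the 5 kept genes in the list of other S100 genes, 3 were higher and 0 lower within both numbers. Of all kept probe sets, 25.3% and 30.1% were. S100a9 reached the filter only through its knockout arrays. Of the 5 genes, 0 passed limma with or without the block, and under the block plus trended prior S100a8 and S100a9 did. The list median was 0.57, and -0.31 without knockout replicate 2.

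**Figure D5:**
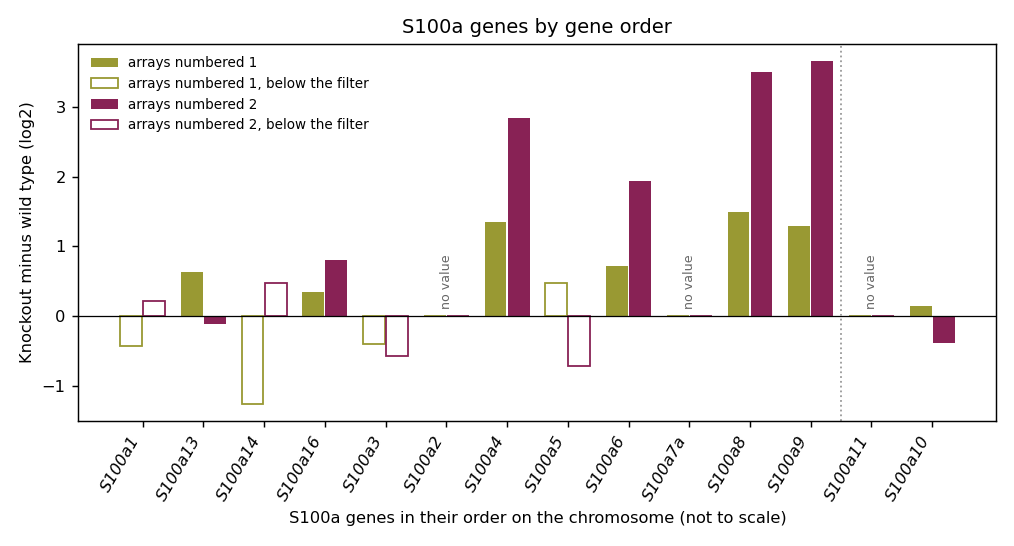
Knockout minus wild-type difference (log2) within arrays numbered 1 (olive) and numbered 2 (purple) for 11 of the 14 S100a genes in their order along the chromosome, not to scale; S100a2, S100a7a and S100a11 have no value, open bars are probe sets below the filter, and a dotted line marks the gap before S100a11 and S100a10. S100a4, S100a6, S100a8 and S100a9 stand out above 0, and S100a3 and S100a5 do not.

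Other annexins and galectins were dim in part. Below the filter, Anxa3 differed by 1.15 (0.28 and 2.02 within the numbers) and Lgals2 by 0.56 (-0.48 and 1.60). Within both numbers, 25.3% of all kept probe sets were higher and 30.1% lower. Of the 4 kept annexins, 1 was higher and 2 were lower within both numbers, with a median of -0.022, which turned to 0.20 with no filter. Among the kept annexins the widest gaps were in Anxa5, a phosphatidylserine binder, at -0.31 (SE 0.32; -0.41 and -0.20), Anxa6 at -0.15 (SE 0.35; -0.08 and -0.22) and Anxa7 at 0.11 (0.15 and 0.067). Of the 4 kept galectins, 3 were higher and 0 lower within both numbers, with a median of 0.19. Lgals9, a ligand of the inhibitory receptor Tim-3, was at 2093.3 and 2775 in wild type and 2493.1 and 3134.2 in knockout, a difference of 0.21 (SE 0.36; 0.25 and 0.17). Lgals4 differed by 0.21 (SE 0.33; 0.22 and 0.20) and Lgalsl by 0.17 (SE 0.37; -0.18 and 0.52). In these lists 0 genes passed limma, with or without the block.

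Genes around CD44 had a median of -0.069 over 12 kept genes. They include the ezrin, radixin and moesin linkers to actin and the enzymes that make or cut hyaluronan. Of the 12, 2 were higher and 3 lower within both numbers, beside 25.3% and 30.1% of all kept probe sets. The linkers Ezr, Rdx and Msn were at -0.05, -0.14 and -0.13 (named after their values were seen). Cd74, the invariant chain of MHC class II and a partner of CD44, was highest at 1.54 (SE 1.57; 0.95 and 2.14); it is also a B cell marker. Has1, a hyaluronan synthase, and Itga4, an integrin chain, followed at -0.21 (SE 0.32; -0.25 and -0.17) and -0.16 (SE 0.40; -0.50 and 0.18).

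A further list held other genes known to be high in memory helper T cells. Of its 31 kept genes, 15 were higher and 7 lower within both numbers (25.3% and 30.1% of all kept probe sets). Among those higher, Tbx21 reached the filter only through its knockout arrays. The list had a median of 0.061, which turned to -0.070 without knockout replicate 2 and to -0.034 without wild-type replicate 1. It was led by Ccl5, a chemokine, at 2.15 (SE 0.32; 2.03 and 2.27), Plac8 at 1.90 (SE 0.77; 1.73 and 2.08) and Cxcr3, a chemokine receptor, at 1.48 (SE 0.38; 1.32 and 1.65). The gap of Ccl5 was wider within number 2 than within number 1 by 0.23 on the log2 scale and that of Cxcr3 by 0.33, beside 1.49 for S100a4, 1.23 for S100a6 and 1.07 for Anxa1; whether these differ was not tested. In limma 0 of the 31 passed without the block (adjusted p = 1.0 for each of the 3 named) and 0 with it; under the block plus trended prior Ccl5, Cxcr3, Nkg7 and Plac8 did. Other genes of the list lay below 0. Emp3 was at -0.42 (-0.44 and -0.39), Vim at -0.13 (0.04 and -0.29) and Capg at -0.57 (-0.49 and -0.64), all named after their values were seen. Genes of the naive state had a median of 0.044 over 16 kept genes, with 4 higher and 4 lower within both numbers; the widest gaps were in Dapl1 at 0.62 (SE 0.85), Il6ra at -0.59 (SE 0.34) and Treml2 at 0.48 (SE 0.32).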

How the data were processed

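RNA had been extracted with Trizol from sorted cells, and 5 micrograms were labelled as biotinylated cRNA, per the labels' protocols. The deposited values are intensities, MAS5 signals. The tool comes from the submitters' processing notes; neither version nor settings were in the sources used here. Each array had the same trimmed mean, 500.003 with 2% of values trimmed at each end. No detection calls were used, so signal over background is not known.

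Of 45101 probe sets, 64 controls were left out. Of the others, 34945 had 1 symbol, 932 several and 9160 none; RefSeq (GRCm38.p6) gave the current symbol of 34741 by Entrez identifier. Signals were transformed as log2(signal + 15.3), 15.3 being the 25% quantile of all values, and probe sets above the median of mean values were kept. The brightest probe set represented a gene. The comparison used limma 3.58.1 under R 4.3.3 (two-sided, Benjamini-Hochberg over all kept probe sets, threshold 0.05), without a block because the labels state no shared animal or day. The script was tested on simulated data, where recovery of large changes was required only of the fit with the block. That test does not tell how many changes the fit without a block would miss. Across probe sets, arrays of the same number deviated together from the group means (r = 0.80; probe sets are not independent replicates). The members and the 15 related lists were chosen with earlier results of these data known. Named are every member probe set, Furin, and the 3 kept genes with the widest gap in each related family list; of the cell type lists mostly sums and counts are given. Other genes named were chosen after their values were seen. Alternatives covered the pseudocount, the filter, the scaling, the prior, the block, averaging over probe sets and each array left out.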

Additional observations from a re-analysis of the deposited data

How the results depend on the processing

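The signs of the 8 member gene differences held in all 60 values under other pseudocounts, filters, scalings, the replicate block and the mean of the kept probe sets. With 1 array left out, which mixes label with array number, 5 of 32 turned sign: S100a10 and Lgals1 without wild-type replicate 2 (0.29 and 0.25) or knockout replicate 1 (0.018 and 0.00053), and Anxa2 without knockout replicate 1 (-0.039). Without knockout replicate 2, S100a4 was at 1.03, S100a6 at 0.65 and Anxa1 at 0.17. Of the list medians, 13 of 52 turned sign with 1 array left out; beside those given with their lists, these were naive genes (-0.30 without wild-type replicate 1, -0.34 without knockout replicate 2), Cd44 partners (0.050), regulatory (0.0017), T cell (0.33) and CD8 T and NK cell markers (-0.095) without knockout replicate 1, and the last 2 lists without wild-type replicate 2 (0.41 and -0.025). Ahnak ranged from -0.88 to -0.45 and Cd44 from -0.36 to -0.20.

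The limma count of 0 probe sets became 6 with array number as a replicate block and 260 with this block and a trended prior, and was 0 in all other settings; the count over the 134 kept genes of the 15 lists, 0 with 7 at an unadjusted p under 0.05, became 16 only with block and trended prior. The labels do not state that numbers pair the arrays. Member probe sets higher within both numbers, 3 of 13, became 6 of 21 with no filter, where 25.7% of all probe sets were. Above the 75th percentile, where 7 members were left, they became 0, beside 26.7% of all kept. Those with knockout arrays all above wild type, 2 of 13, became 4 of 21 with no filter (10.9% of all) and 0 of 7 above the 75th percentile (6.79%). Those with knockout arrays all below, 3 of 13, became 1 after median centring (8.12% of all kept). With 1 array left out these last 2 counts ranged from 3 to 6 and from 3 to 8, while the shares of all kept probe sets rose to between 23.6% and 32.7% and between 28.3% and 34.1%; the counts within both numbers need all 4 arrays. Between array numbers, limma called 0 probe sets and 0 members with no filter (11679 at an unadjusted p under 0.05), and this fit could not be made with 3 arrays; the cause was not tested. With 2 arrays a group and no detection calls, signals near 15.3, such as those of S100a4 and Lgals3 in wild type, have poorly known ratios.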
